A study of Mus musculus with 8 samples.

Results

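The mRNA of 8 genes was followed in mouse kidney cortex on diets with more or less phosphate (Pi). The genes were grouped as proximal tubule transcription factors and coactivators of mitochondrial genes. They were the nuclear receptors Hnf4a, Hnf4g, Nr1h4, Rxra, Esrra and Esrrg and the coactivators Ppargc1a and Ppargc1b, taken by gene symbol from the 17457 genes listed per library, together with their 38 listed transcripts. Cortex mRNA was sequenced from C57BL/6J mice fed a high Pi (1.2%) diet and from mice fed a normal Pi (0.6%) diet, both from Envigo, for 3 days. Each diet had 4 mice, and each mouse gave 1 library. Both groups were wild type, and the labels name no other treatment. The study's methods describe its mice as age-matched young adult males, the labels give no age or sex per mouse, and the cortex was not sorted into cell types. Levels are FPKM, fragments scaled to transcript length and library size. A log2 fold change is the mean of log2(FPKM + 1) on the high Pi diet less that on the normal Pi diet, given with its standard error (SE) and 95% confidence interval (95% CI), and it understates changes of the lowest genes.

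Nuclear receptors are transcription factors whose activity is set by small lipophilic ligands or, for orphan receptors, largely by the coactivators bound to them. HNF4α is a lineage factor of the proximal tubule, liver and gut, and FXR (Nr1h4) senses bile acids and binds DNA with RXRα (Rxra), which is also the partner of the vitamin D, PPAR and LXR receptors. PGC-1α (Ppargc1a) and PGC-1β (Ppargc1b) are inducible coactivators that dock on HNF4α, PPARα and above all the estrogen-related receptors ERRα (Esrra) and ERRγ (Esrrg), and they are known for driving mitochondrial biogenesis, oxidative metabolism and, in mouse kidney, NAD synthesis from tryptophan.

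Promoter windows, taken from RefSeq on GRCm38.p6, were matched for 6 of the 8 genes by symbol (11 windows). For the genes whose levels or isoforms the results turn on, 1 window each is shown. It covers up to 250 bases before the start and is read 5′ to 3′ on the gene's own strand. Capitals mark GTTAAT (bound by HNF1 factors), AGGTCA (the core bound by nuclear receptors) or TGACG (the core bound by CREB), found on either strand. The Hnf4a window shown, 1 of 2, is chr2:163546905-163547154 (plus strand) and ends at the start region of transcript NM_008261.3. The Nr1h4 window is chr10:89506659-89506908 (minus strand) and ends at the start region of NM_009108.2 and NM_001163700.1. The Ppargc1a window is chr5:51567727-51567975 (minus strand), an upstream start that is not that of NM_008904.2.
Hnf4a: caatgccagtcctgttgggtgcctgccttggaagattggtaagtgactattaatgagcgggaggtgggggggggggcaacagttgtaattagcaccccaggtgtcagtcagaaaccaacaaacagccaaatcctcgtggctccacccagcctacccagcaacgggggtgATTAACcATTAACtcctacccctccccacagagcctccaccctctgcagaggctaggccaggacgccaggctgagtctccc
Nr1h4: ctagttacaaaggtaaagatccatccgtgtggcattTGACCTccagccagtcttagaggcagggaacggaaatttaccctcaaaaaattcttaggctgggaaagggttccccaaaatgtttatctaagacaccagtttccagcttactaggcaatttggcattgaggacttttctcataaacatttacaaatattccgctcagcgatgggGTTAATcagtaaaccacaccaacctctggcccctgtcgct
Ppargc1a: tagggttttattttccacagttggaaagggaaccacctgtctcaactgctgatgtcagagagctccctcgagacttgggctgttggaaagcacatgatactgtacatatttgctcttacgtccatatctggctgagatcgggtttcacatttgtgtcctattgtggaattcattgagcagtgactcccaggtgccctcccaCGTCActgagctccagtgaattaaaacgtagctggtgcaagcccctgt
The printed Hnf4a window held 2 copies of GTTAAT in the reverse orientation, beginning 81 and 74 bases before the start and separated by a single base. The Nr1h4 window held 1 copy of GTTAAT at 40 bases and 1 of AGGTCA at 214 bases before the start, and the Ppargc1a window held 1 TGACG at 49 bases. Over all 32851 windows of the RefSeq table, GTTAAT occurred among the first 250 bases, those before the start, in 6.43%, AGGTCA in 14% and TGACG in 17.8%. CAAAGTCCA (an HNF4 site), TCAAGGTCA (an ERR site, which contains AGGTCA) and CACGTG (an E-box) were searched in the same way and did not occur in these 3 windows. The other Hnf4a window, chr2:163506607-163506807 (plus strand), lies at an upstream start, is not printed and held none of the motifs searched.

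The libraries were estimated to hold 13000000 to 14100000 fragments, since FPKM do not state depth, and 15405 to 15571 genes were above 0 in each. High Pi replicate 1 stood apart, at 0.299 (root mean square difference in log2 level from the rest of its diet), against 0.138 to 0.212 for the other 7 libraries. All 8 libraries were kept, and the value without high Pi replicate 1 is given wherever it matters. Of 12383 genes tested, 37 passed a limma-trend test at an adjusted p of 0.05 (22 were higher in high Pi mice and 15 lower), and 421 passed without high Pi replicate 1. Markers of the proximal tubule were present in every library (10 of 10 markers of segments S1 and S2 and 7 of 7 of S3). The p-values measure the spread between these mice.

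None of the 8 genes passed the adjusted threshold with all 8 libraries, where 0.299% of all genes tested did. At an unadjusted p of 0.05, 2 of the 8 passed by limma-trend, Hnf4a and Ppargc1a, both lower on the high Pi diet, against 9.35% of all genes. The diets did not overlap for 1 of 8, Hnf4a, against 5.02% of all genes. Without high Pi replicate 1, Ppargc1a alone passed (1 of 8, against 3.4% of all genes), 3 of 8 had an unadjusted p below 0.05 (18.8% of all genes), and the diets did not overlap for 3 of 8, Hnf4a, Esrra and Ppargc1a, all lower (12.3% of all genes). All 8 passed the filter on low values. The log2 fold change was negative for 6 of 8, against 54.3% of all genes, and its median was -0.11, against -0.01 over all genes. The 95% CI, on FPKM + 1, stayed inside 1.5-fold up or down for 7 of the 8, all but Ppargc1a. For the lowest of the genes, Hnf4g and Ppargc1b, this bound is looser in FPKM itself.

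**Figure D1:**
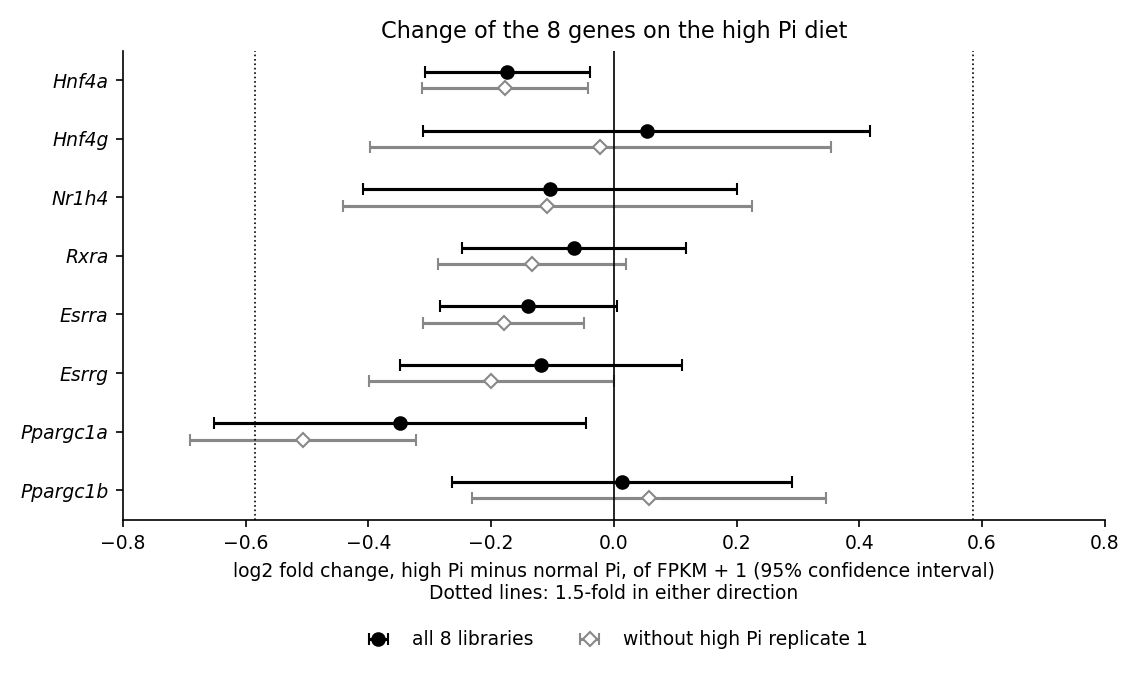
Log2 fold changes (x axis, high Pi minus normal Pi, on log2 of FPKM + 1) of the 8 genes with 95% confidence intervals from limma-trend. Filled circles use all 8 libraries and open diamonds leave out high Pi replicate 1. The interval of Hnf4a lies below 0 in both fits, and the point of Ppargc1a is at -0.35 with all libraries and -0.51 without high Pi replicate 1.

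Hnf4a encodes HNF4α, the most abundant of the 8 at the mRNA level (chr2:163506811-163572907, gene ID 15378). It had 210.5, 210.6, 194 and 221 FPKM in high Pi mice, against 225, 234, 239 and 244 FPKM in normal Pi mice. Every high Pi library lay below every normal Pi library, by a small margin between 221 and 225 FPKM. The means were 209 ± 11.0 FPKM on the high Pi diet and 236 ± 8.03 FPKM on the normal Pi diet (SD, n = 4 mice each). Its log2 fold change was -0.17 (SE 0.0619, 95% CI -0.31 to -0.04), with a limma-trend p of 0.0161 and an adjusted p of 0.345. An exact two-sided permutation test gave p = 0.0286, the smallest that 4 against 4 allow. The change was nearly the same without high Pi replicate 1 (-0.18, limma adjusted p = 0.152), and it ranged from -0.20 to -0.14 when each library was left out in turn. The summed level of the 10 S1 and S2 proximal tubule markers, among them the phosphate transporter Slc34a1, also did not overlap, at 4279 to 5252 FPKM on the high Pi diet and 5306 to 6193 FPKM on the normal Pi diet. Slc34a1 alone held 60.2% to 68.2% of this sum. Without it (chosen after seeing the data) the diets overlapped, at 1515 to 2089 FPKM on the high Pi diet and 1777 to 2047 FPKM on the normal Pi diet. That overlap came through high Pi replicate 1, at 2089 FPKM. With this library also left out, the diets did not overlap, lower on the high Pi diet. By limma-trend 0 of the 10 markers passed (0.299% of all genes). The diets did not overlap for 2 of 10, Slc34a1 and Slc5a2 (5.02% of all genes). Slc22a6 (0.08) and Slc22a8 (0.09) had positive log2 fold changes. Without high Pi replicate 1, 6 of 10 passed by limma-trend, all lower (3.4% of all genes). The diets then did not overlap for 6 of 10, all lower (12.3% of all genes), and Slc22a6 (0.12) and Slc22a8 (0.05) stayed positive. The 7 S3 proximal tubule markers mostly went the other way, with 1 of 7 negative (54.3% of all genes) and a median log2 fold change of 0.20. Their sum overlapped between diets, and 0 passed. Without high Pi replicate 1, 0 of 7 were negative (61.2% of all genes) and the median was 0.43. In that fit 2 of them passed, both higher (3.4% of all genes). Fewer cells of a type and less RNA per cell cannot be told apart in bulk cortex. The part of proximal tubule cells in the Hnf4a values was not tested.

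Hnf4g encodes HNF4γ, a paralog best known from the intestine (chr3:3508030-3659800, gene ID 30942). It had 3.23, 3.63, 1.7 and 2.23 FPKM in high Pi mice, against 2.96, 2.88, 2.35 and 1.86 FPKM in normal Pi mice. High values (replicates 1 and 2 of both diets) and low values occurred on both diets, which overlapped fully. In the fit over all genes the log2 fold change was 0.05 (SE 0.167, 95% CI -0.31 to 0.42, limma adjusted p = 0.965), and its sign turned to -0.02 without high Pi replicate 1. These values rest on an estimated 50 to 100 fragments per library, a counting error of about 14% at the low end, against 0.94% for Hnf4a.

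**Figure D2:**
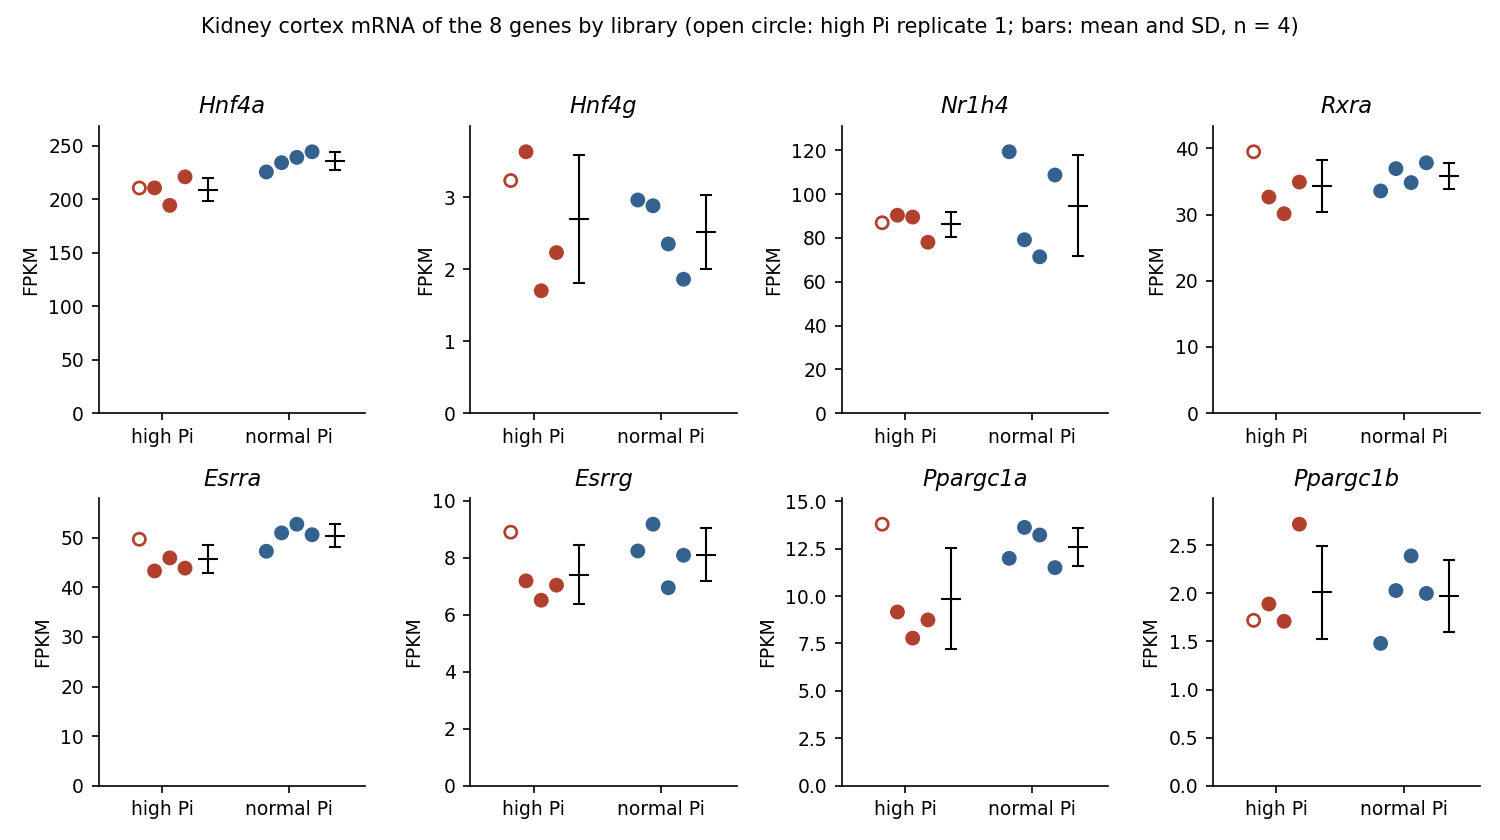
FPKM (y axes, each starting at 0) of the 8 genes in the 4 high Pi libraries and the 4 normal Pi libraries, with the mean and SD of each diet beside the points. The open circle is high Pi replicate 1. Hnf4a is separated between diets, and Ppargc1a is separated except for high Pi replicate 1 at 13.8 FPKM.

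Nr1h4, the gene of the bile acid receptor FXR (chr10:89454234-89533645, gene ID 20186), had 86.9, 90.3, 89.5 and 78.0 FPKM in high Pi mice, against 119, 79.2, 71.4 and 109 FPKM in normal Pi mice. The high Pi libraries lay close together (86.2 ± 5.65 FPKM, SD, n = 4) and inside the range of the normal Pi libraries, which were split between replicates 1 and 4, at 119 and 109 FPKM, and replicates 2 and 3 (94.6 ± 23.0 FPKM, SD, n = 4). The fitted log2 fold change was -0.10 (SE 0.140, 95% CI -0.41 to 0.20, limma adjusted p = 0.894) and turned to 0.02 without normal Pi replicate 1. An estimated 1900 fragments or more per library lay behind each value, a counting error of at most 2.3%. The 3 genes with the most similar profiles over the 8 libraries, of 11344 compared, were Mettl6, Rpl22l1 and Tipin, with root mean square differences of 0.102, 0.106 and 0.109 on the log2 scale.

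Rxra, the gene of the shared heterodimer partner RXRα (chr2:27676445-27763319, gene ID 20181), had 39.5, 32.6, 30.1 and 34.9 FPKM in high Pi mice, against 33.6, 36.9, 34.8 and 37.8 FPKM in normal Pi mice. The highest value of all was high Pi replicate 1, the other 3 high Pi libraries were between 30.1 and 34.9 FPKM, and the diets overlapped. The log2 fold change was -0.07 (SE 0.0838, 95% CI -0.25 to 0.12, limma adjusted p = 0.892), and -0.13 without high Pi replicate 1 (adjusted p = 0.334).

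Esrra, the gene of ERRα (chr19:6910977-6922048, gene ID 26379), had 49.7, 43.3, 45.9 and 43.9 FPKM in high Pi mice, against 47.3, 51.0, 52.7 and 50.6 FPKM in normal Pi mice. Only high Pi replicate 1 reached into the range of the normal Pi libraries, so the diets overlapped through that library. The means were 45.7 ± 2.89 FPKM on the high Pi diet and 50.4 ± 2.28 FPKM on the normal Pi diet (SD, n = 4 each). Its log2 fold change was -0.14 (SE 0.0662, 95% CI -0.28 to 0.01, limma adjusted p = 0.557, and p = 0.0571 in the exact two-sided permutation test). With high Pi replicate 1 left out it was -0.18 (95% CI -0.31 to -0.05, adjusted p = 0.138), the diets did not overlap, and it still did not pass.

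Esrrg, the gene of ERRγ, an orphan receptor of highly oxidative tissues (chr1:187608510-188214885, gene ID 26381), had 8.90, 7.19, 6.51 and 7.04 FPKM in high Pi mice, against 8.24, 9.18, 6.95 and 8.09 FPKM in normal Pi mice. As for Esrra and Rxra, the highest of the high Pi libraries was replicate 1, and the diets overlapped. In the fit over all genes the log2 fold change was -0.12 (SE 0.105, 95% CI -0.35 to 0.11, limma adjusted p = 0.803), and -0.20 without high Pi replicate 1 (adjusted p = 0.267).

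Ppargc1a, the gene of PGC-1α (chr5:51454249-52115853, gene ID 19017), had 13.8, 9.16, 7.78 and 8.74 FPKM in high Pi mice, against 12.0, 13.6, 13.2 and 11.5 FPKM in normal Pi mice. High Pi replicate 1 had the highest value of the 8 libraries, while the other 3 high Pi libraries were the 3 lowest, all below the lowest normal Pi library. The means were 9.87 ± 2.68 FPKM on the high Pi diet and 12.6 ± 1.00 FPKM on the normal Pi diet (SD, n = 4 each). The fitted log2 fold change was -0.35 (SE 0.139, 95% CI -0.65 to -0.05), with a limma-trend p of 0.0275, an adjusted p of 0.422 and an exact two-sided permutation p of 0.143. Leaving out high Pi replicate 1, the high Pi mean was 8.56 ± 0.707 FPKM (SD, n = 3), and the log2 fold change was -0.51 (SE 0.0838, 95% CI -0.69 to -0.32, limma adjusted p = 0.0104). The exact two-sided permutation p was 0.0286, the smallest that 3 against 4 allow. With all 8 libraries weighted by their own variability, Ppargc1a passed (-0.41, limma adjusted p = 0.0264), in a fit where 466 of 12383 genes did. Such weights count a library that stands apart for less, so this fit is not independent of leaving out high Pi replicate 1. The adjusted p was at least 0.531 in each of the other 7 fits that omitted 1 library. Between 680 and 1200 estimated fragments per library lay behind these values, a counting error of 3.8% at the low end.

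High Pi replicate 1 also differed from the other libraries in its cell type markers. Its 7 S3 proximal tubule markers summed to 655 FPKM, against 1229 to 1265 FPKM in the other high Pi libraries and 807 to 1239 FPKM on the normal Pi diet. Slc5a1, an S3 marker, went the other way, at 22.7 FPKM in that library. It had 15.2 to 16.2 FPKM in the other high Pi libraries and 10.8 to 13.3 FPKM on the normal Pi diet. Its 6 intercalated cell markers summed to 168 FPKM, against 102 to 106 FPKM in the other high Pi libraries and 125 to 134 FPKM on the normal Pi diet. The 5 markers of the distal convoluted tubule summed to 659 FPKM in that library, against 437 to 445 FPKM in the other high Pi libraries and 493 to 544 FPKM on the normal Pi diet. The 6 podocyte markers summed to 142 FPKM there, against 104 to 105 FPKM in the other high Pi libraries and 106 to 118 FPKM on the normal Pi diet. Like Ppargc1a, the last 3 sums were highest in high Pi replicate 1 and lowest in the other 3 high Pi libraries, but not all single markers were. These cell types were chosen after their values were seen, and the sums of the other cell types lacked this pattern. Thick ascending limb markers summed to 1444 FPKM in that library, against 1257 to 1661 FPKM in the other high Pi libraries. Collecting duct principal cell markers summed to 229 FPKM there, against 205 to 251 FPKM, and leukocyte markers to 113 FPKM, against 82.5 to 116 FPKM. With that library left out, the diets did not overlap, lower on the high Pi diet, for 4 of the 5 distal convoluted tubule markers, 5 of the 6 intercalated cell markers and 3 of the 6 podocyte markers (12.3% of all genes). Pvalb, a distal convoluted tubule marker, went the other way and passed with all 8 libraries (0.49, limma adjusted p = 0.0420). Slc4a1, of intercalated cells, had 31.0, 10.3, 11.2 and 10.3 FPKM in high Pi mice, against 10.3, 10.1, 11.5 and 10.1 FPKM in normal Pi mice. All of these markers were above 0 in all 8 libraries. The part of these marker differences in the values of Ppargc1a, Rxra, Esrra and Esrrg was not tested.

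Ppargc1b, the gene of the less abundant coactivator PGC-1β (chr18:61291445-61400756, gene ID 170826), had 1.72, 1.89, 1.71 and 2.72 FPKM in high Pi mice, against 1.48, 2.03, 2.39 and 2.0 FPKM in normal Pi mice. Its highest value was high Pi replicate 4 and its lowest normal Pi replicate 1, so neither diet was set apart. The log2 fold change was 0.01 (SE 0.127, 95% CI -0.26 to 0.29, limma adjusted p = 0.991), on an estimated 69 to 140 fragments per library, a counting error of about 12% at the low end.

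Between genes, mean levels over the 8 libraries were in the order Hnf4a (222 FPKM), Nr1h4 (90.4), Esrra (48.1), Rxra (35.0), Ppargc1a (11.2), Esrrg (7.76), Hnf4g (2.61) and Ppargc1b (1.99). FPKM are scaled to transcript length, so that these levels can be set side by side. The ranges of neighbours overlapped in 2 places. Ppargc1a and Esrrg overlapped in range although Ppargc1a was higher in 8 of 8 libraries, and Hnf4g and Ppargc1b could not be ordered, with Hnf4g higher in 4 of 8. Hnf4a had a higher mean than 96.7% of the genes tested, and Ppargc1b than 19.0%.

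The paralogs were unequal in every library. Hnf4a was 58.0 to 131 times Hnf4g, Esrra was 5.55 to 7.59 times Esrrg, and Ppargc1a was 3.21 to 8.10 times Ppargc1b. The diets overlapped for all 3 ratios. Ppargc1a over Ppargc1b, the ratio that came closest, was 8.02, 4.85, 4.55 and 3.21 in high Pi mice, against 8.10, 6.71, 5.53 and 5.75 in normal Pi mice (5.16 ± 2.04 on the high Pi diet and 6.52 ± 1.17 on the normal Pi diet, SD, n = 4 each). Its exact two-sided permutation p was 0.286, or 0.729 adjusted over the 3 ratios, and high Pi replicate 1 was again on the level of the highest normal Pi library.

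Of the 38 transcripts, 19 passed the filter on low values and none passed the adjusted threshold (5 of 22595 transcripts tested did, 0.0221%). A single transcript was below 0.05 before adjustment (1 of 19, against 7.1% of all transcripts), with a limma p of 0.00021 that ranked 25 of 22595. This was XM_006498787.1 of Hnf4a, also the 1 transcript of the 38 whose values did not overlap between diets (4.11% of all transcripts tested). It had 85.5, 82.3, 83.9 and 88.1 FPKM in high Pi mice, against 101, 104, 111 and 105 FPKM in normal Pi mice. The gap between the diets, from 88.1 to 101 FPKM, was wider than the spread within either. Its log2 fold change was -0.31 (SE 0.0509, limma adjusted p = 0.181, and 0.0955 with high Pi replicate 1 left out).

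NM_008261.3, the other main Hnf4a transcript, whose start region follows the printed window, did not separate the diets. It had 125, 128, 110.2 and 130.2 FPKM in high Pi mice, against 125, 130.0, 123 and 138 FPKM in normal Pi mice, a log2 fold change of -0.06 (limma adjusted p = 0.910). As a share of summed Hnf4a FPKM it was 59.0% ± 1.73 on the high Pi diet and 54.7% ± 2.24 on the normal Pi diet (SD, n = 4 each), without overlap (exact two-sided permutation p = 0.0286). XM_006498787.1 held 40.7% ± 1.78 on the high Pi diet and 44.7% ± 1.34 on the normal Pi diet (exact permutation p = 0.0571). The remaining 3 Hnf4a transcripts were listed at 0 in most libraries.

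Nr1h4 was mostly NM_009108.2 and NM_001163700.1, both with the start region that follows the printed window. NM_009108.2 held 63.1%, 65.8%, 70.9% and 63.1% of summed Nr1h4 FPKM in high Pi mice, against 57.3%, 59.6%, 61.2% and 61.5% in normal Pi mice. These shares did not overlap, although the level of the gene did (65.7% ± 3.70 on the high Pi diet and 59.9% ± 1.95 on the normal Pi diet, SD, n = 4 each, exact two-sided permutation p = 0.0286). NM_001163700.1 held 29.4% ± 3.70 on the high Pi diet and 33.5% ± 0.808 on the normal Pi diet (exact permutation p = 0.0571). In all, 12 shares were tested, and the 2 Hnf4a and 2 Nr1h4 shares each had an adjusted p of 0.171, so none passed. Shares of the same gene are parts of 1 total, so the 2 of each gene are not separate results.

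**Figure D3:**
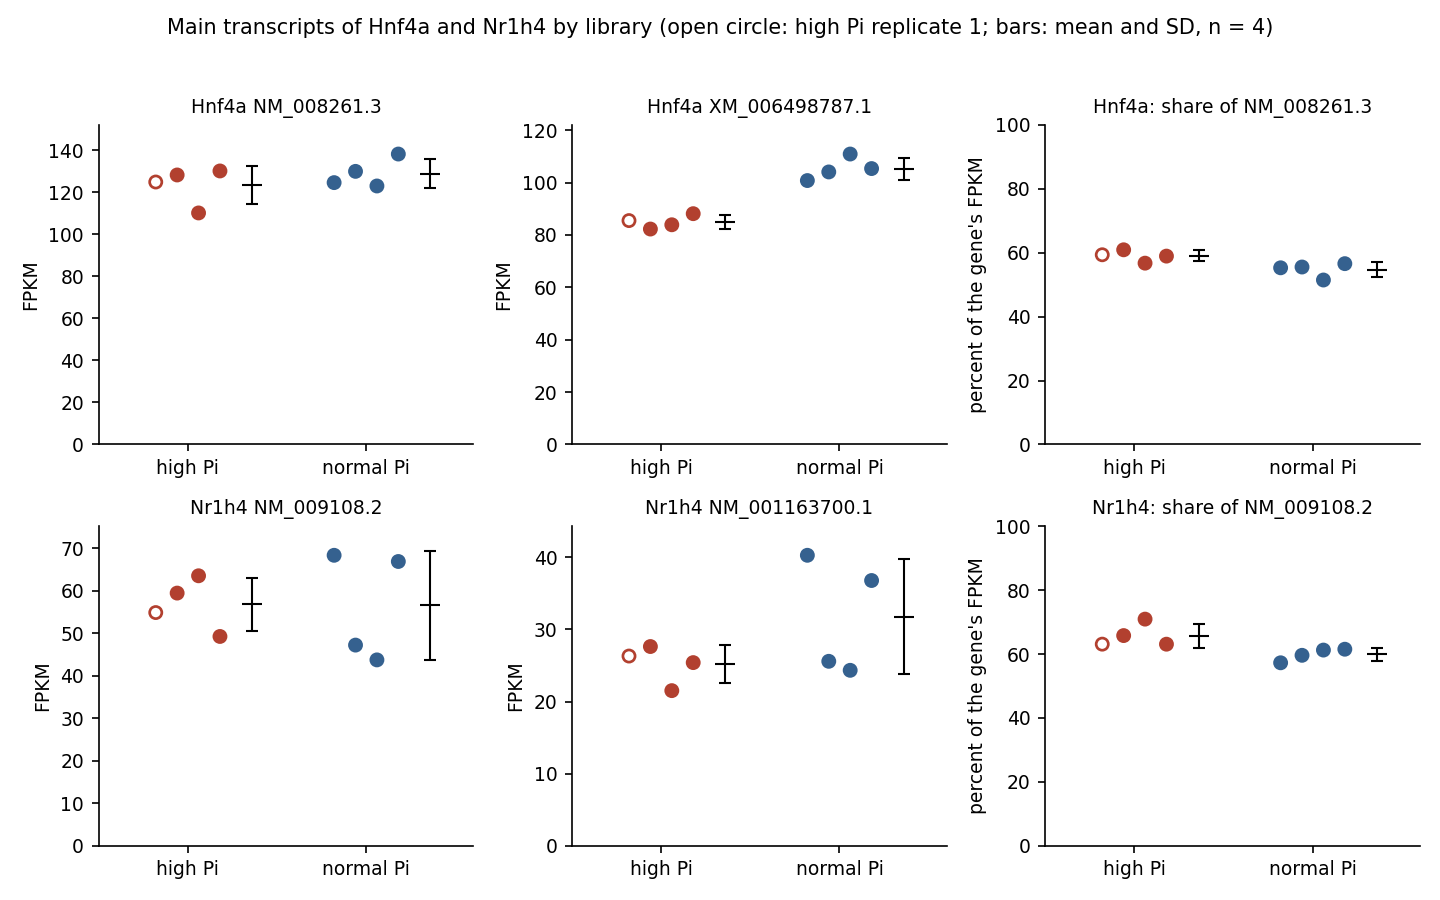
FPKM of the 2 main transcripts of Hnf4a (upper row) and Nr1h4 (lower row) and the percent of the gene's FPKM held by the first of them, per library, with high Pi left of normal Pi and the mean and SD beside the points. XM_006498787.1 of Hnf4a lies at 82.3 to 88.1 FPKM on the high Pi diet and 101 to 111 FPKM on the normal Pi diet, while NM_008261.3 overlaps.

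Fragments that fit more than 1 isoform have to be divided between them, and how this was done is not given in the sources used here. For the main transcripts of Rxra, Esrrg, Ppargc1a and Ppargc1b, the larger SD of the share within a diet exceeded the difference between the diet means. Ppargc1a was mostly split between NM_008904.2 and XM_017320718.1. The latter had 6.77, 2.83, 4.73 and 0.08 FPKM in high Pi mice, against 5.02, 7.26, 4.76 and 2.92 FPKM in normal Pi mice. A lesser transcript, XM_006503779.3, was below the filter, at 0 in all high Pi libraries and 0, 1.28, 2.04 and 0.54 FPKM in normal Pi mice. The single XM_017320718.1 value of 0.08 FPKM in high Pi replicate 4 goes with 96.6% of the gene in NM_008904.2 in that library. The lower level of Ppargc1a in 3 high Pi libraries thus cannot be placed on 1 isoform. Rxra was divided between NM_011305.3 (39.9% to 63.2% of its FPKM over the 8 libraries) and XM_006497805.1. Esrra was mostly NM_007953.2 (79.5% to 99.3%), Hnf4g was nearly all NM_013920.2, and Ppargc1b was NM_133249.2 (62.2% to 81.9%) with XM_006525698.2. Esrrg had 11 listed transcripts, of which 8 were listed at 0 in at least 1 library, 1 of them in all 8.

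The 6 receptors were set beside the rest of the nuclear receptor superfamily. Of 49 receptor genes listed, 46 were in the table and 35 were tested. Of the 35, 0 passed the adjusted threshold by limma-trend. Before adjustment, 2 were higher at a p below 0.05 (4.55% of all genes) and 3 lower (4.8% of all genes), with a median log2 fold change of -0.04 against -0.01 over all genes. Hnf4a was the most abundant receptor of the 35, Nr1h4 the third, Esrra the sixth and Rxra the ninth. The smallest p belonged to Nr2f6, an orphan receptor of the COUP family, which had 41.1, 40.0, 41.9 and 40.4 FPKM in high Pi mice, against 42.7, 54.6, 48.4 and 48.1 FPKM in normal Pi mice. The diets did not overlap for Nr2f6, with a log2 fold change of -0.24 (limma adjusted p = 0.277). Besides Nr2f6 and Hnf4a, the receptors below 0.05 before adjustment were all partners of RXRα (chosen after their values were seen). Vdr, the vitamin D receptor, had a log2 fold change of 0.25 (adjusted p = 0.404) and Ppara, the fatty acid receptor, 0.27 (adjusted p = 0.462). Thra, a thyroid hormone receptor, had -0.19 without overlap between diets (adjusted p = 0.407). Other partners (also chosen after their values were seen) went both ways. Ppard (-0.14), Thrb (-0.13), Rara (-0.08) and Nr1h2 (-0.03) were negative, and Pparg (0.22), Rarb (0.17), Rarg (0.15), Nr1h3 (0.07) and Nr1i2 (0.06) were positive. With high Pi replicate 1 left out, still none of the 35 passed.

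**Figure D4:**
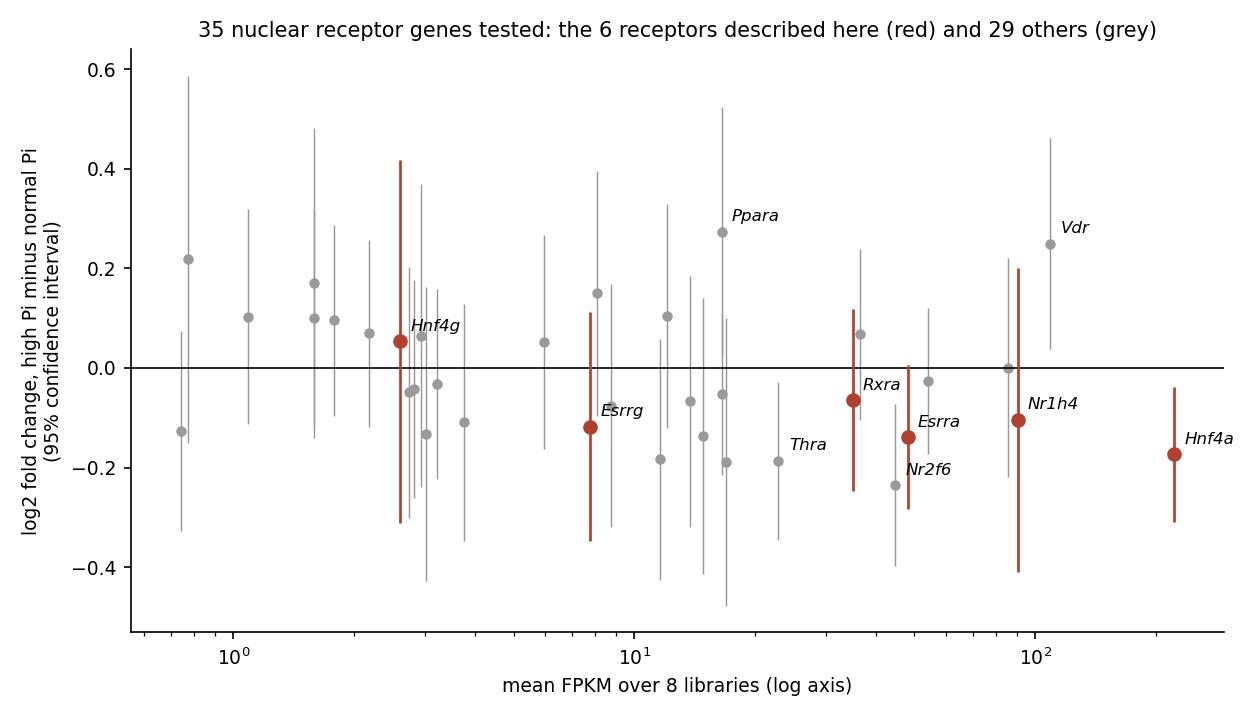
Log2 fold change (y axis, high Pi minus normal Pi, 95% CI) against mean FPKM over the 8 libraries (x axis, log scale) for the 35 nuclear receptor genes tested, the 6 receptors described here in red and the others in grey. Hnf4a at 222 FPKM is the most abundant, and the red points lie between -0.17 and 0.05.

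Genes known as targets of the receptors were counted from lists, with none of the counts read as activity of the factor. Of 18 tested genes known in liver or kidney as HNF4 targets, 0 passed by limma-trend. Before adjustment, 4 were higher at a p below 0.05 (4.55% of all genes) and 1 was lower (4.8% of all genes), with a median log2 fold change of 0.08. The smallest p belonged to Pklr, the liver-type pyruvate kinase. It had a log2 fold change of 0.30 with no overlap between diets (adjusted p = 0.213), a direction opposite to that of Hnf4a. The paper, with DESeq2 on counts, reported a modest increase of Pklr that passed its adjusted threshold. When high Pi replicate 1 was left out, 3 of the 18 passed (3.4% of all genes). Pck1, cytosolic phosphoenolpyruvate carboxykinase and also a known PGC-1α target in liver, had 426, 1101, 1149 and 1417 FPKM in high Pi mice, against 538, 427, 527 and 449 FPKM in normal Pi mice. High Pi replicate 1 was the lowest of all 8, and without it the log2 fold change was 1.33 (limma adjusted p = 0.000158), against 0.95 with it (adjusted p = 0.250). Ttr, transthyretin, was higher in the same fit (0.79, limma adjusted p = 0.00316), against 0.37 with all 8 libraries (adjusted p = 0.790). Slc2a2, the glucose transporter GLUT2, was lower in it (-0.49, limma adjusted p = 0.00761), against -0.31 with all 8 libraries (adjusted p = 0.557). In high Pi replicates 2, 3 and 4, Pck1 was high where Ppargc1a was low, and high Pi replicate 1 had the reverse for both. The relation between the 2 genes was not tested.

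Of 11 tested FXR targets, 1 passed and was higher, against 0.178% of all genes. Before adjustment, 4 were higher at a p below 0.05 (4.55% of all genes) and 1 was lower (4.8% of all genes). Slc51a, the alpha subunit of the basolateral bile acid and steroid exporter OST, had 178, 164, 159.5 and 139 FPKM in high Pi mice, against 115, 116, 119 and 123 FPKM in normal Pi mice. Every high Pi library was above every normal Pi library. In the fit over all genes the log2 fold change was 0.43 (SE 0.0752, limma adjusted p = 0.0409), but the adjusted p was above 0.05 under 4 of 6 other settings (up to 0.183) and when either of high Pi replicates 2 and 3 or any normal Pi library was left out (up to 0.153). The direction was the same under all of these settings. The other 3 that were higher before adjustment were Pltp, the phospholipid transfer protein (0.45, adjusted p = 0.155), Abcc2, an apical exporter of organic anions (0.38, adjusted p = 0.299), and Sdc1, syndecan-1 (0.17 without overlap, adjusted p = 0.522). The gene of the beta subunit of OST, Slc51b, had a log2 fold change of -0.03 (adjusted p = 0.977), and Nr0b2, the gene of the FXR-induced repressor SHP, had 0.10 (adjusted p = 0.836; these 5 were chosen after their values were seen). Slc10a1, a bile acid importer of liver that was scarce in cortex, had 0.69, 0.47, 0.28 and 0.36 FPKM in high Pi mice, against 1.26, 0.86, 1.17 and 1.12 FPKM in normal Pi mice. These did not overlap, and the log2 fold change of -0.54 missed the threshold (limma adjusted p = 0.0702), whereas it passed without high Pi replicate 1 (-0.62, adjusted p = 0.00761). The median of the 11 was 0.03.

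None of the tested genes around PGC-1 passed. Of 25 tested partners and regulators of PGC-1, 0 passed by limma-trend and 1 was lower at an unadjusted p below 0.05 (4.8% of all genes), with a median log2 fold change of -0.08 and 19 of 25 negative (54.3% of all genes). Without high Pi replicate 1, 0 passed, 22 of 25 were negative (61.2% of all genes) and the median was -0.17 against -0.04 over all genes. The smallest p was that of Perm1, a muscle-enriched regulator induced by PGC-1 and ERR, which had 1.52, 0.94, 1.24 and 0.94 FPKM in high Pi mice, against 1.63, 1.46, 1.73 and 1.40 FPKM in normal Pi mice. High Pi replicate 1 was again the highest of its diet and the library through which the diets overlapped (log2 fold change -0.25, limma adjusted p = 0.456). Of 23 tested targets of PGC-1α and ERRα, 0 passed and 2 were lower at an unadjusted p below 0.05 (4.8% of all genes), with a median of -0.01. Vegfa, a growth factor gene known in muscle as a PGC-1α target, had 41.5, 43.9, 40.0 and 40.9 FPKM in high Pi mice, against 51.8, 63.9, 47.8 and 47.1 FPKM in normal Pi mice. The diets did not overlap, and high Pi replicate 1 lay with its own diet here (log2 fold change -0.32, limma adjusted p = 0.206).

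Of 14 tested genes of mitochondrial DNA maintenance and transcription, 0 passed by limma-trend and none reached an unadjusted p of 0.05, with a median log2 fold change of -0.05. The smallest p was that of Tefm, the mitochondrial elongation factor (-0.14, adjusted p = 0.630). Of 13 tested genes of NAD synthesis, 0 passed and 2 were lower at an unadjusted p below 0.05 (4.8% of all genes), with a median of -0.08. Qprt, quinolinate phosphoribosyltransferase, which commits tryptophan carbon to NAD, had 51.7, 50.5, 45.4 and 43.8 FPKM in high Pi mice, against 53.1, 54.3, 61.9 and 52.6 FPKM in normal Pi mice. The diets were separated by less than 1 FPKM (log2 fold change -0.21, limma adjusted p = 0.369). Acmsd, which diverts the pathway away from NAD, had 53.5, 32.8, 32.0 and 39.4 FPKM in high Pi mice, against 46.9, 53.0, 41.9 and 52.7 FPKM in normal Pi mice. It passed without high Pi replicate 1 (-0.47, limma adjusted p = 0.0252, in a fit where 3.4% of all genes passed), against -0.32 and an adjusted p of 0.505 with it.

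Of 19 other tested transcription factors of the nephron, 0 passed by limma-trend and 3 were higher at an unadjusted p below 0.05 (4.55% of all genes), with a median log2 fold change of -0.02. Without high Pi replicate 1, 2 of the 19 passed (3.4% of all genes). Cebpa, a C/EBP factor of metabolic tissues, was higher (0.48, adjusted p = 0.0120) and Maf, a factor of the proximal tubule, was lower (-0.58, adjusted p = 0.0119). Cebpa had 14.2, 18.8, 22.4 and 22.9 FPKM in high Pi mice, against 13.9, 14.4, 16.2 and 15.3 FPKM in normal Pi mice. Maf had 61.8, 36.4, 29.6 and 30.3 FPKM in high Pi mice, against 49.0, 54.5, 40.8 and 50.1 FPKM in normal Pi mice. For both, high Pi replicate 1 lay outside the other 3 high Pi libraries, on the side of the normal Pi libraries.

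The genes whose profile over the 8 libraries was closest to that of Ppargc1a, of 11344 compared, were Ank3, which encodes ankyrin G, Kl, which encodes the FGF23 coreceptor klotho, and Slc2a2. The root mean square differences between centred log2 profiles were 0.0499, 0.0554 and 0.0665. Kl had 183, 121, 111 and 126 FPKM in high Pi mice, against 159, 176, 172 and 168 FPKM in normal Pi mice. Ank3 had 23.7, 16.7, 14.6 and 16.4 FPKM in high Pi mice, against 20.2, 22.9, 22.4 and 20.5 FPKM in normal Pi mice. In all 4 genes high Pi replicate 1 was the highest library and high Pi replicate 3 the lowest. These genes were picked for this likeness, so that it is a description, and the 8 points share the library that stands apart. For Hnf4g, whose counts are low, the closest profiles were those of Ccdc117, Zscan12 and Olfr1033, at 0.126, 0.134 and 0.138.

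**Figure D5:**
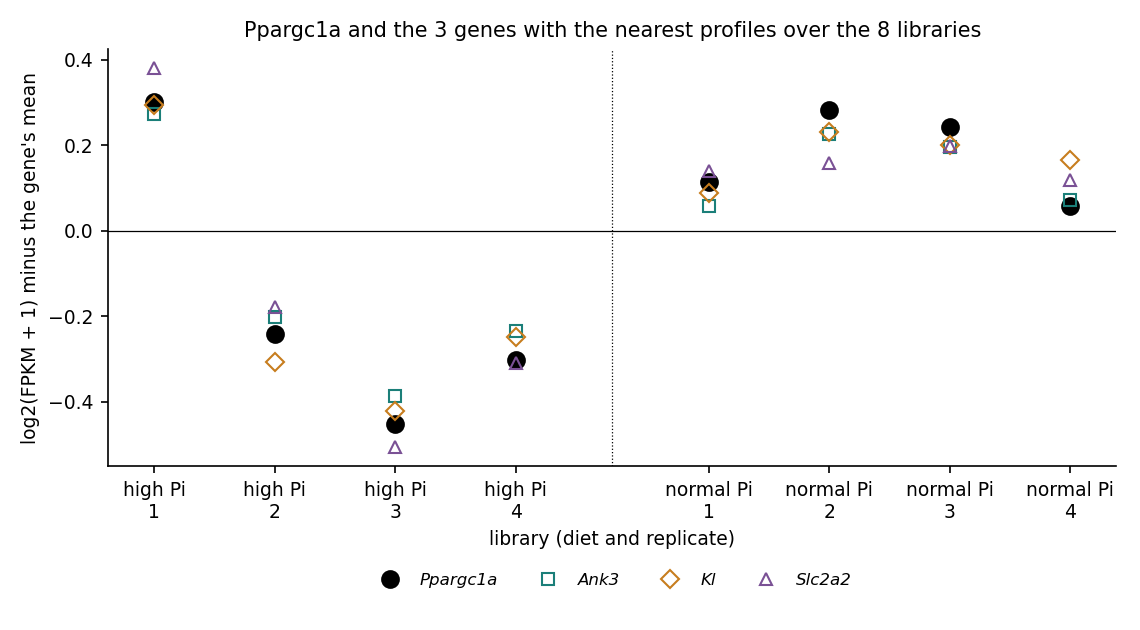
Log2(FPKM + 1) minus each gene's mean (y axis) in the 4 high Pi libraries, left, and the 4 normal Pi libraries, right, for Ppargc1a (filled circles) and the 3 genes with the nearest profiles. All 4 genes are high in high Pi replicate 1 and the normal Pi libraries and low in high Pi replicates 2, 3 and 4.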

How the data were processed

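Kidney cortex mRNA of 4 high Pi and 4 normal Pi mice was sequenced by the authors on the BGI DNBSEQ platform. The sample labels gave each mouse's diet and number. The authors deposited FPKM per gene and per transcript for each library, rounded to hundredths, and the submitters' processing notes name HISAT, Bowtie2 and GRCm38.p6, with no version and no counting step. The authors tested counts with DESeq2, and the FPKM used here are not counts, so limma-trend was used, as the design allowed. Depth was estimated from the steps between low FPKM of genes with a known transcript length, where 64.8% to 71.3% of these values were whole within 0.1 fragment. Counting errors cover counting only.

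Features that reached 0.5 FPKM in 4 or more libraries (12383 genes and, separately, 22595 transcripts) were fitted on log2(FPKM + 1) with limma 3.58.1 in R 4.3.3, two-sided, with Benjamini-Hochberg adjustment over all of them and a threshold of 0.05. The fit was tested on simulated data, with changes larger than those of the 8 genes and deviations from the diet means shuffled between libraries. That test does not cover changes as small as theirs or a library that stands apart. Exact permutation tests ran over the 70 ways to divide the 8 libraries. Transcript shares were tested where a gene had at least a pair of transcripts of 10% or more. Alternatives were quantile normalization, median-of-ratios scaling, no filter on low values, a pseudocount of 0.1, library weights, a block on the replicate number, and each library left out. Genes outside the 8 were named where they passed in their list or had its smallest p, with and without high Pi replicate 1, or had 1 of the 3 nearest profiles (root mean square difference, mean of at least 1 FPKM) to a gene with an SD above 0.2 on the log2 scale. Genes named outside this rule are marked in the text, apart from single cell type markers. Those markers were named after their values were seen. The members and the lists were chosen with earlier results of these data known, and no list was tested as a set. Of the gene IDs, 17346 were found in the RefSeq annotation of GRCm38.p6, which gave the positions. Python 3.11.15 with numpy 2.4.6, pandas 2.3.3 and matplotlib 3.10.9 served for summaries and plots.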

Additional observations from a re-analysis of the deposited data

How the results depend on the processing

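Of the 8 genes, 0 passed under quantile normalization, median-of-ratios scaling, a pseudocount of 0.1 and no filter, and 1, Ppargc1a, passed with library weights (log2 fold change -0.41, limma-trend adjusted p = 0.0264). Leaving out each library gave 0 to 1, the 1 being Ppargc1a without high Pi replicate 1. Genes called, 37 in all, were 466 with library weights, 8 with no filter and 4 to 421 with each library left out (4 to 19 apart from high Pi replicate 1). Transcripts called, 5 in all, were 0 with no filter and 0 to 20 with each library left out. The replicate numbers did not pair the mice (correlations of the deviations between same-numbered mice -0.21, -0.01, 0.06 and -0.12). With the number as a block, 11 genes, 0 of the 8 members and 0 transcripts were called.

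With each library left out, the sign was not kept for Hnf4g (-0.065 to 0.19), Nr1h4 (-0.23 to 0.017) and Ppargc1b (-0.093 to 0.079), all far from the threshold. Among the other genes named, Nr2f6, Cebpa, Maf, Pck1, Slc2a2, Slc10a1 and Acmsd passed with library weights (limma adjusted p 0.0443, 0.0199, 0.0334, 0.00189, 0.0240, 0.00322 and 0.0442), and Slc51a did not pass with median-of-ratios scaling, no filter, quantile normalization or the replicate block (0.0539, 0.104, 0.0751 and 0.183). Signs also changed for transcripts NM_013920.2 (-0.065 to 0.17), NM_009108.2 (-0.085 to 0.13), NM_011305.3 (-0.14 to 0.15), XM_006527110.3 (-0.73 to 0.38, and 0.31 with a pseudocount of 0.1), XM_011238920.2 (-0.024 to 0.17), NM_008904.2 (-0.28 to 0.13) and NM_133249.2 (-0.18 to 0.030). Shares that changed sign were those of NM_011305.3 (-1.45 to 6.34 percentage points), XM_006497805.1 (-6.64 to 1.45), NM_008904.2 (-0.263 to 18.8) and XM_017320718.1 (-12.2 to 7.77). Hnf4g and Ppargc1b rest on the fewest estimated fragments, with counting errors of about 14% and 12% at the low end. The part of counting in their spread between mice was not tested. The division of fragments between isoforms limits all transcript values. Leaving out the most abundant marker of each cell type list, chosen after seeing the data, moved the log2 ratio of the summed S1 and S2 markers to -0.14, against -0.31 with all 10.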
